A study of Mus musculus with 12 samples.

Results

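The genes described here are 46 cell cycle genes of the mouse, taken from a list of named genes: 22 genes of DNA replication, active around S phase, and 24 genes of mitosis. They are 46 of 37991 gene identifiers in the count files, and all 46 passed the filter on low counts that left 16163 genes for testing. Poly(A) RNA was sequenced from 12 cultures of mouse embryonic fibroblasts (MEFs, primary connective tissue cells grown from embryos) that had been driven towards the fat cell fate for 6 days. Per the labels the male C57BL/6N embryos were taken at E15.5 from interbred mice and were Gadd45a-/-;Ing1-/- (DKO, 3 libraries), Ing1-/- (Ing1-KO, 3), Gadd45a-/- (Gadd45a-KO, 3) or wild type (WT, 3). All 4 groups shared 4 passages in culture and the same induction after confluence, with insulin (10 µg/ml), rosiglitazone (2 µM), dexamethasone (1 µM) and IBMX (0.5 mM) in the first 48 h. Both lesions came from deficient mouse lines, so all cell types of a culture share its genotype, and the labels do not say whether the replicates came from separate embryos.

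Cells copy their DNA once per cycle. Before S phase the MCM helicase is loaded onto replication origins by Cdc6 and Cdt1, cyclin E with its kinase and the E2F transcription factors start synthesis, and ribonucleotide reductase with thymidylate synthase supplies the building blocks. From late S phase to mitosis the activators Mybl2 and Foxm1 turn on cyclins A and B, Cdk1, the Aurora and Polo kinases, the kinetochore and the spindle motors. E2F sites are known as the promoter elements of the replication genes, and CCAAT boxes with a cell cycle homology region (CHR) as those of the mitotic genes. MEFs given an adipogenic cocktail after confluence are known to pass through a few rounds of division early on and to leave the cycle as they become fat cells.

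Ing1 encodes a subunit of a histone deacetylase complex that binds methylated histone H3, and Gadd45a a stress-induced protein. Ing1 followed its label, at 0.915, 1.15 and 0.680 CPM in libraries labelled DKO, 1.00, 1.07 and 1.60 in Ing1-KO, 46.3, 47.3 and 44.4 in libraries labelled Gadd45a-KO and 44.6, 47.9 and 43.6 in WT (CPM, gene reads scaled to a common library total with TMM factors). Gadd45a went against its label, at 140.3, 142 and 138 CPM in libraries labelled DKO, 13.4, 14.98 and 18.4 in Ing1-KO, 144, 141 and 144 in libraries labelled Gadd45a-KO and 14.4, 17.9 and 15.1 in WT. It was higher in the libraries labelled Gadd45a-KO than in WT (log2 fold change 3.18 ± 0.11 SE, adjusted p = 1.93e-07) and in those labelled DKO than in Ing1-KO (log2 fold change 3.16 ± 0.11 SE, adjusted p = 2.02e-07). Gene-level counts cannot tell which stretch of a gene was transcribed, so every direction below that involves Gadd45a rests on the labels. Gene reads per library lay between 42891627 and 52860419. Fibroblast markers were abundant in all 12 libraries, with a summed level between 47786 and 59131 CPM over 11 genes. Each of 20 macrophage and leukocyte markers was also detected in all 12 libraries, and of 16 adipocyte markers Lep and Retn each had 0 reads in 1 library labelled DKO. Because whole cultures were sequenced, fewer dividing cells and less RNA per dividing cell cannot be told apart in any value below.

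All 46 genes were readily measured, with 151 to 13340 reads each per library. On a per-length scale, averaged over the 12 libraries, the highest levels were those of Pcna, the sliding clamp of DNA polymerases (29.1 RPKM, the CPM per kilobase of exon), Mki67, the Ki-67 protein of the mitotic chromosome surface (22.02 RPKM), Rrm2, the regulated subunit of ribonucleotide reductase (21.8 RPKM), and Top2a, the topoisomerase that untangles sister chromatids (19.03 RPKM). The lowest were Cdc6, a loader of the MCM helicase (1.92 RPKM), and the E2F factor E2f2 (1.71 RPKM). The replication genes had a median level of 6.43 RPKM and the mitotic genes one of 7.01 RPKM. In the annotation 8 of the 46 genes share over 5% of their exon bases with a neighbouring gene, where reads cannot be assigned with certainty: Gins2 (67.3%, with Gse1), Kif20a (29.3%, with Cdc23), Ube2c (22.8%, with Tnnc2), Ccne2 (17.4%, with Ints8), Mcm7 (12.6%), Ccna2 (12.5%), Plk1 (7.09%) and Cdc45 (5.96%). Pcna, Tyms, Ccnb1 and Ccnb2 have annotated pseudogenes of the same name, whose shared reads the authors' counting may have dropped.

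**Figure D1:**
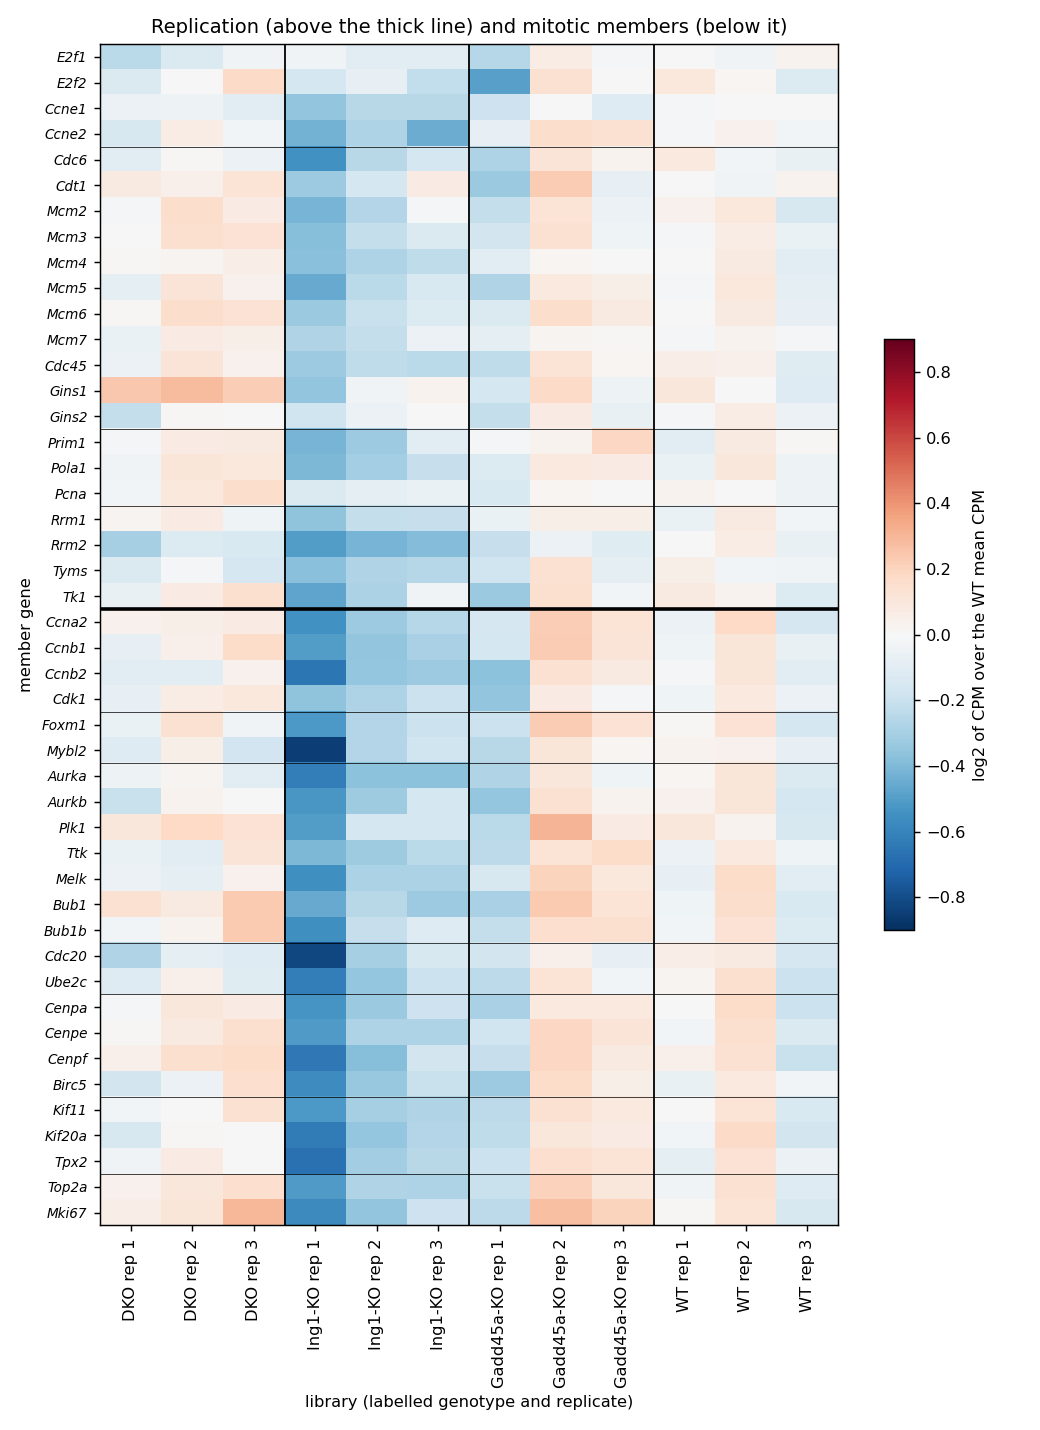
Levels of the 46 genes in each library, as the log2 of the CPM over the gene's mean CPM in WT; columns are the 12 libraries by labelled genotype and replicate, rows the genes with replication genes above the thick line and mitotic genes below it. Ing1-KO replicate 1 is the bluest column and holds the lowest level of the 12 libraries in 40 of the 46 genes, and Gadd45a-KO replicate 1 is the lowest of its group for all 46.

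Promoter windows from RefSeq (GRCm38.p6, 250 bases before to 50 bases after a gene's start) were searched on both strands for the letters of 3 motifs: E2F as TTTGGCGC, TTTGCCGC, TTTCGCGC or TTTCCCGC, CHR as TTTGAA or TTCGAA, and CCAAT. By symbol 37 of the 46 genes matched; the others are Ccne2, Mcm4, Gins1, Gins2, Ccna2, Foxm1, Aurkb, Kif20a and Tpx2. For 32 of the 37 the bases after the start also matched a transcript of the GENCODE annotation. The E2F letters were in a window of 8 of 18 replication genes (44.4%) and of 1 of 19 mitotic genes (5.26%, Cdk1), against 2.6% of all 27025 genes in the table. The CHR letters stood in 4 of 18 replication genes (22.2%) and 14 of 19 mitotic genes (73.7%), against 21.7% of all genes. CCAAT was found in 12 of 18 replication genes (66.7%) and 16 of 19 mitotic genes (84.2%), against 41.1% of all genes. Restricted to the bases before the start, the CHR share of the mitotic genes was 42.1% and the E2F share of the replication genes 27.8%, against 19.6% and 2.16% of all genes. A match is a run of letters and not a shown binding site; overlapping matches of 1 motif were counted as 1 gene.

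The arrangement of these letters is shown for 2 genes of each kind, those with the smallest adjusted p in the comparison of Ing1-KO with WT among genes that hold their class's motif in the 200 bases before the start. None of the 4 passed that test: adjusted p was 0.0505 for Pola1, 0.111 for Mcm7, 0.0807 for Kif11 and 0.0837 for Ccnb2. Capitals mark the motif letters, and each stretch runs 5′ to 3′ along the gene's strand. In Pola1, the catalytic subunit of the polymerase that starts DNA strands (chrX:93632156-93632355, minus strand), an E2F match begins 138 bases before the start and a CCAAT box 37 bases before it, both read on the strand opposite to the gene. In Mcm7, a helicase subunit (chr5:138171884-138172083, minus strand), a CHR match and an E2F match lie side by side, 173 and 165 bases before the start, and 2 CCAAT boxes follow 72 and 26 bases before it. Mcm7 has 2 windows in the table, and this is the one with the E2F letters. Past the printed stretch, that window also holds an E2F match at base 17 and a CCAAT match at base 24 counted from the start. In Kif11, the motor that pushes the spindle poles apart (chr19:37376182-37376381, plus strand), a CCAAT box 45 bases before the start is followed by a CHR match 19 bases before it. In Ccnb2, a B-type cyclin (chr9:70421555-70421754, minus strand), a CHR match 167 bases before the start is followed by 3 CCAAT boxes 87, 54 and 21 bases before it. Its window holds a second CHR match past the printed stretch, at base 5 counted from the start and so downstream of the 3 boxes. No marked motifs of different kinds overlap in these 4 stretches.
Pola1: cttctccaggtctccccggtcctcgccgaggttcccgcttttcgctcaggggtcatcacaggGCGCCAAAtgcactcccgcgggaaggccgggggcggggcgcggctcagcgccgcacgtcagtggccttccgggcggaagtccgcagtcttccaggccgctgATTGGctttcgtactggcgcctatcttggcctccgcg
Mcm7: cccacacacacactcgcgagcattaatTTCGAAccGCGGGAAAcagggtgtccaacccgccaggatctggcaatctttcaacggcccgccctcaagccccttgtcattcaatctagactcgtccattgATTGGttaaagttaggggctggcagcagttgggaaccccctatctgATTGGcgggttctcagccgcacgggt
Kif11: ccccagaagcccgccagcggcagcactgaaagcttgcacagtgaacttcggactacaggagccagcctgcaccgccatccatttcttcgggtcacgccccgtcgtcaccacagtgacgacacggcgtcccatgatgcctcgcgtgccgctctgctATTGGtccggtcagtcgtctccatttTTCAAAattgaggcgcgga
Ccnb2: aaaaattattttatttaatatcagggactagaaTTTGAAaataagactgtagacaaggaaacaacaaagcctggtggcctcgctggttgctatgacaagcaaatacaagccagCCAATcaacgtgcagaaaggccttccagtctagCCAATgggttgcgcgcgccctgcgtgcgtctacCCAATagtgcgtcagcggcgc

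**Figure D2:**
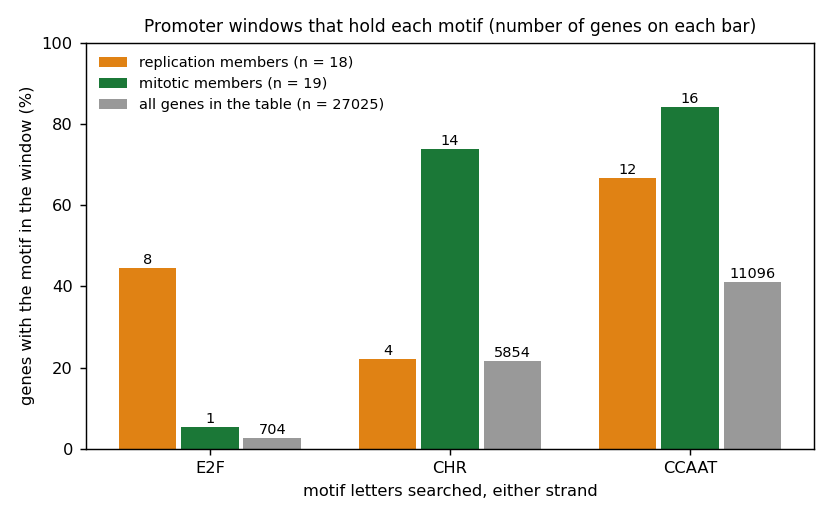
Share of genes, in percent, whose RefSeq promoter window holds the E2F, CHR or CCAAT letters on either strand, for replication genes (n = 18), mitotic genes (n = 19) and all genes in the table (n = 27025), with the number of genes on each bar. The E2F bar is highest for replication genes at 44.4% and the CHR bar for mitotic genes at 73.7%.

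The comparison of Ing1-KO with WT asks what loss of Ing1 alone does. All 46 genes had a negative log2 fold change, from -0.08 in Gins2 and E2f1 to -0.45 in Aurka, with a median of -0.31, where the median of all genes tested was 0.003. In 6 genes the fall passed the test (adjusted p under 0.05, edgeR quasi-likelihood test adjusted over all 16163 genes): Rrm2, Ccne1, Mcm4, Ccne2 and Rrm1 of the replication genes and Aurka of the mitotic genes. These are 13.0% of the 46 genes, against 1.84% of all genes tested that fell; 36 of the 46 had an unadjusted p under 0.05, as did 20.6% of all genes in either direction. The cultures thus differed by a median of 19.5% in the transcript levels of these genes, with single genes between 5.23% and 26.8% lower in Ing1-KO.

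Both subunits of ribonucleotide reductase, which makes deoxynucleotides, fell. Rrm2 stood at 55.5, 62.7 and 62.2 CPM in libraries labelled DKO, 48.1, 51.2 and 52.2 in Ing1-KO, 59.3, 65.9 and 63.3 in libraries labelled Gadd45a-KO and 68.1, 71.5 and 65.2 in WT (log2 fold change -0.43 ± 0.060 SE, adjusted p = 0.00466). Every Ing1-KO library lay below every other library, and the libraries labelled DKO also lay below those of WT. Its catalytic partner Rrm1 stood at 140.4, 156 and 157 CPM in Ing1-KO against 173, 191 and 178 CPM in WT (log2 fold change -0.26 ± 0.056 SE, adjusted p = 0.0302), again with no overlap. Tyms, thymidylate synthase, averaged 17.4 ± 0.776 CPM in Ing1-KO and 21.5 ± 0.691 CPM in WT (SD, n = 3 each; log2 fold change -0.30) and lay just outside the threshold (adjusted p = 0.0516). Thymidine kinase, Tk1, averaged 22.7 ± 3.54 CPM in Ing1-KO and 27.05 ± 1.94 CPM in WT and did not pass (adjusted p = 0.318).

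Both E-type cyclins, the partners of Cdk2 at the start of S phase, fell. Ccne1 stood at 34.5, 34.7 and 33.4 CPM in libraries labelled DKO, 28.01, 30.1 and 30.1 in Ing1-KO, 31.4, 35.6 and 33.00 in libraries labelled Gadd45a-KO and 35.5, 35.9 and 35.9 in WT (log2 fold change -0.28 ± 0.050 SE, adjusted p = 0.0138). Its 3 WT libraries differed by less than 1 CPM, and the Ing1-KO libraries lay below the other 9. Ccne2 stood at 22.7, 26.4 and 24.7 CPM in libraries labelled DKO, 18.8, 20.8 and 18.5 in Ing1-KO, 23.9, 28.1 and 27.6 in libraries labelled Gadd45a-KO and 24.8, 25.9 and 24.8 in WT (log2 fold change -0.38 ± 0.075 SE, adjusted p = 0.0236). Here too no Ing1-KO library reached any of the other 9. The E2F factors, which drive both cyclins, did not pass: E2f1 stood at 32.5, 35.2 and 37.6 CPM in libraries labelled DKO, 37.6, 35.8 and 35.8 in Ing1-KO, 32.1, 40.2 and 38.1 in libraries labelled Gadd45a-KO and 38.5, 37.6 and 39.4 in WT (log2 fold change -0.080, adjusted p = 0.617). The groups overlapped, and Ing1-KO replicate 1, the lowest library for most genes, was the highest of its group. E2f2 averaged 7.83 ± 0.403 CPM in Ing1-KO and 8.68 ± 0.651 CPM in WT (adjusted p = 0.610).

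Of the 11 genes of origin licensing and the replicative helicase, Mcm4 alone passed, and all 11 were on the negative side with a median log2 fold change of -0.22. Mcm4 stood at 58.9, 59.7 and 61.1 CPM in libraries labelled DKO, 45.2, 48.4 and 50.1 in Ing1-KO, 54.9, 59.3 and 58.7 in libraries labelled Gadd45a-KO and 58.9, 61.95 and 54.9 in WT (log2 fold change -0.29 ± 0.053 SE, adjusted p = 0.0165). Its 3 Ing1-KO libraries lay below the other 9. Mcm5, another subunit of the same ring, stood at 31.6, 36.5 and 39.2 CPM in Ing1-KO against 42.5, 45.9 and 40.9 CPM in WT (log2 fold change -0.27, adjusted p = 0.168). Mcm2, also of the ring, stood at 32.2, 35.96 and 42.8 CPM in Ing1-KO against 44.2, 45.96 and 39.03 CPM in WT (log2 fold change -0.22, adjusted p = 0.3002). There the groups overlapped, since Ing1-KO replicate 3 lay above WT replicate 3. The loaders Cdc6 and Cdt1 had log2 fold changes of -0.31 and -0.13, and the helicase cofactors Cdc45, Gins1 and Gins2 of -0.26, -0.11 and -0.078, none past the test. At the fork, Pola1 stood at 17.5, 18.8 and 20.1 CPM in Ing1-KO against 22.2, 24.9 and 22.4 CPM in WT, with no overlap and an adjusted p of 0.0505, just over the threshold. The log2 fold change of the primase subunit Prim1 was -0.28 (adjusted p = 0.09997). Pcna stood at 64.2, 66.3 and 67.6 CPM in Ing1-KO against 72.1, 70.7 and 68.4 CPM in WT (log2 fold change -0.092, adjusted p = 0.365).

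Of the 24 mitotic genes Aurka, the Aurora kinase of the spindle poles, fell, at 18.8, 19.8 and 18.1 CPM in libraries labelled DKO, 12.6, 14.98 and 14.98 in Ing1-KO, 16.1, 20.8 and 18.9 in libraries labelled Gadd45a-KO and 19.6, 20.9 and 17.7 in WT (log2 fold change -0.45 ± 0.10 SE, adjusted p = 0.0356). The Ing1-KO libraries lay below the other 9. The mitotic cyclins did not pass: Ccnb1, the cyclin that activates Cdk1 at entry into mitosis, stood at 12.4, 13.6 and 14.2 CPM in Ing1-KO against 16.98, 18.8 and 16.7 CPM in WT (log2 fold change -0.38, adjusted p = 0.0597). Ccna2, cyclin A2, stood at 30.3, 35.3 and 37.02 CPM in Ing1-KO against 42.7, 50.1 and 39.8 CPM in WT (log2 fold change -0.37, adjusted p = 0.0839). Both cyclins were lower in every Ing1-KO library than in every WT library. The activators Foxm1 and Mybl2 had log2 fold changes of -0.32 and -0.40 with adjusted p of 0.168 and 0.167. Mybl2 stood at 6.13, 9.21 and 9.77 CPM in Ing1-KO against 11.3, 11.4 and 10.5 CPM in WT, with replicate 1 far below replicates 2 and 3 of Ing1-KO. The other mitotic groups did not pass either. The kinases and checkpoint genes Aurkb, Plk1, Ttk, Melk, Bub1 and Bub1b had log2 fold changes between -0.37 and -0.26. Those of Cdc20, an activator of the anaphase-promoting complex, and of Ube2c, its ubiquitin-conjugating enzyme, were -0.39 and -0.38. The centromere and passenger genes Cenpa, Cenpe, Cenpf and Birc5 lay between -0.38 and -0.34, and the spindle genes Kif11, Kif20a and Tpx2 between -0.40 and -0.36.

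The proliferation marker Mki67 stood at 150.1, 175 and 197 CPM in Ing1-KO against 225, 243 and 202 CPM in WT (log2 fold change -0.36, adjusted p = 0.173). Top2a stood at 124, 147 and 145 CPM in Ing1-KO against 173, 194 and 163 CPM in WT (log2 fold change -0.35, adjusted p = 0.0898). In both genes no Ing1-KO library reached a WT library. The same held for 35 of the 46 genes, 15 of 22 replication and 20 of 24 mitotic genes, against 12.5% of all genes tested with such a separation downwards. Ing1-KO lay below all 9 other libraries in 19 genes, 9 replication and 10 mitotic, against 2.85% of all genes. The count of calls rested on single libraries, as did that over all genes, 671 with all 12 libraries. Leaving out WT replicate 1, WT replicate 2 or Ing1-KO replicate 2 left 1 call, and leaving out WT replicate 3 left 2. All-gene calls were then 158, 136, 96 and 174. With Ing1-KO replicate 1 removed there were 4, with Ing1-KO replicate 3 removed 11 and with Gadd45a-KO replicate 1 removed 21. Of all genes 782, 1155 and 1144 passed there. At least 45 of the 46 genes were on the negative side in each fit named here. Rrm2 passed in all 12 fits that left out 1 library, and DESeq2 called 17 of the 46, where it called 608 of 15899 genes lower (3.82%).

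**Figure D3:**
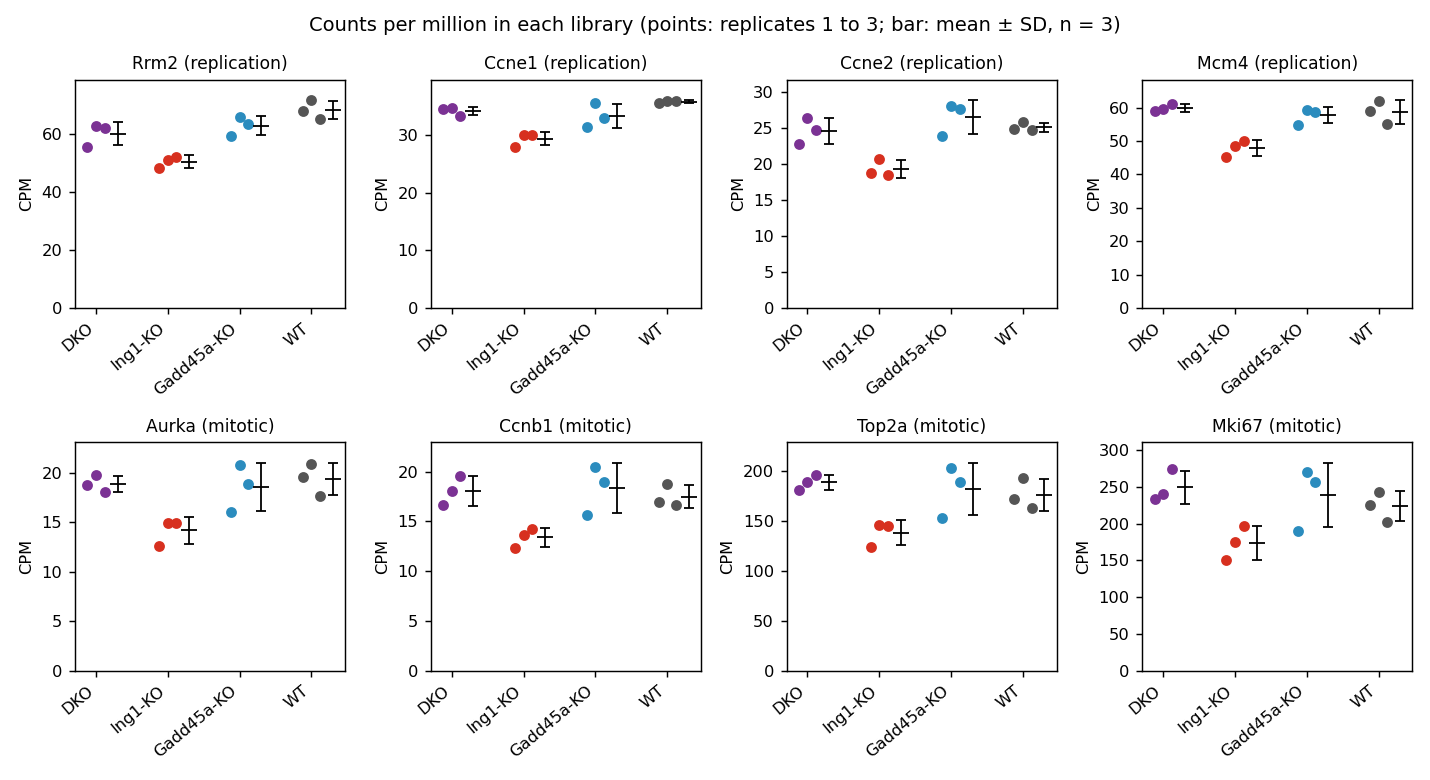
Levels in CPM of 4 replication genes (Rrm2, Ccne1, Ccne2, Mcm4) and 4 mitotic genes (Aurka, Ccnb1, Top2a, Mki67) by labelled genotype; points are replicates 1 to 3 and the bar is the mean ± SD (n = 3). In each gene the 3 Ing1-KO points lie below the 3 WT points and the 3 points labelled DKO.

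Setting the libraries labelled DKO against Ing1-KO asks what the lesion labelled Gadd45a-/- adds in cells without Ing1. The genes lay higher in the libraries labelled DKO: 45 of 46 log2 fold changes were positive (44 with upper-quartile scaling), the exception being E2f1 (-0.052), and their median was 0.33. The rise passed the test in 20 genes (43.5%), 10 of 22 replication and 10 of 24 mitotic genes, and none fell. Of all genes tested 5.93% rose. The median of the 46 genes was 25.4% above Ing1-KO. The same 3 Ing1-KO libraries serve as the reference here and as the mutant in the comparison with WT, so both results share them.

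Among the replication genes Mcm4 had the smallest adjusted p (log2 fold change 0.32 ± 0.053 SE, adjusted p = 0.0140), and Mcm3, Mcm6 and Mcm7, further subunits of the helicase ring, rose by 0.33, 0.32 and 0.20 on the log2 scale. Ribonucleotide reductase rose in both subunits, Rrm1 by 0.28 (adjusted p = 0.0202) and Rrm2 by 0.25 (adjusted p = 0.0280). Both E-type cyclins rose as well, Ccne2 by 0.35 (adjusted p = 0.0236) and Ccne1 by 0.22 (adjusted p = 0.0254). At the fork Pola1 rose, with 22.7, 24.99 and 24.7 CPM in the libraries labelled DKO and 17.5, 18.8 and 20.1 CPM in Ing1-KO (log2 fold change 0.36 ± 0.076 SE, adjusted p = 0.0224), as did Prim1 (log2 fold change 0.33, adjusted p = 0.0384). Mcm2 and Mcm5, both at a log2 fold change of 0.30, did not pass, nor did Pcna at 0.17, with 69.3, 75.2 and 78.5 CPM in the libraries labelled DKO and 64.2, 66.3 and 67.6 CPM in Ing1-KO (adjusted p = 0.0573). Gins2, with 11.4, 13.4 and 13.2 CPM in the libraries labelled DKO and 11.7, 12.7 and 13.2 CPM in Ing1-KO, was nearly level (log2 fold change 0.014), and its sign turned to -0.009 with upper-quartile scaling.

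The mitotic genes that rose were Ccna2 and Ccnb1 of the cyclins, Aurka and Bub1 of the kinases, Cenpe and Cenpf of the kinetochore, Kif11 and Tpx2 of the spindle, and Top2a and Mki67. Ccnb1 had the smallest adjusted p, with 16.6, 18.02 and 19.6 CPM in the libraries labelled DKO and 12.4, 13.6 and 14.2 CPM in Ing1-KO (log2 fold change 0.43 ± 0.10 SE, adjusted p = 0.0280). Top2a stood at 181, 189 and 196 CPM in the libraries labelled DKO and 124, 147 and 145 CPM in Ing1-KO (log2 fold change 0.45 ± 0.10 SE, adjusted p = 0.0282). The largest log2 fold change was that of Mki67, 0.52 ± 0.14 SE, with 233, 241 and 274 CPM in the libraries labelled DKO and 150.1, 175 and 197 CPM in Ing1-KO (adjusted p = 0.0415). In these 3 genes the groups did not overlap. Cenpf, a large kinetochore protein, rose by 0.50 (adjusted p = 0.0390) and Bub1, a kinase of the spindle checkpoint, by 0.49 (adjusted p = 0.0345). Ccna2 rose by 0.43, with 45.4, 45.9 and 46.6 CPM in the libraries labelled DKO and 30.3, 35.3 and 37.02 CPM in Ing1-KO (adjusted p = 0.0353). Foxm1 and Mybl2, at log2 fold changes of 0.33 and 0.32, did not pass, nor did Plk1 (0.40, adjusted p = 0.0668) or Cdk1 (0.31, adjusted p = 0.0611).

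In 37 of the 46 genes, 15 replication and 22 mitotic, every library labelled DKO lay above every Ing1-KO library, against 17.4% of all genes with such a separation upwards. The count of calls again moved with single libraries, as did that over all genes, 1932 with all 12 libraries. Leaving out DKO replicate 1, DKO replicate 2 or Ing1-KO replicate 2 left 0 calls, where 6, 140 and 12 of all genes passed. With Ing1-KO replicate 1 removed there was 1, with DKO replicate 3 removed 6 and with Gadd45a-KO replicate 1 removed 32. All-gene calls were then 309, 1484 and 2851. At least 44 of 46 genes were positive in each fit named here. Without a filter on low counts 13 passed, 9 replication and 4 mitotic, where 590 of 25970 genes rose (2.27%). DESeq2 called 32, where 1543 of 15395 genes rose.

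**Figure D4:**
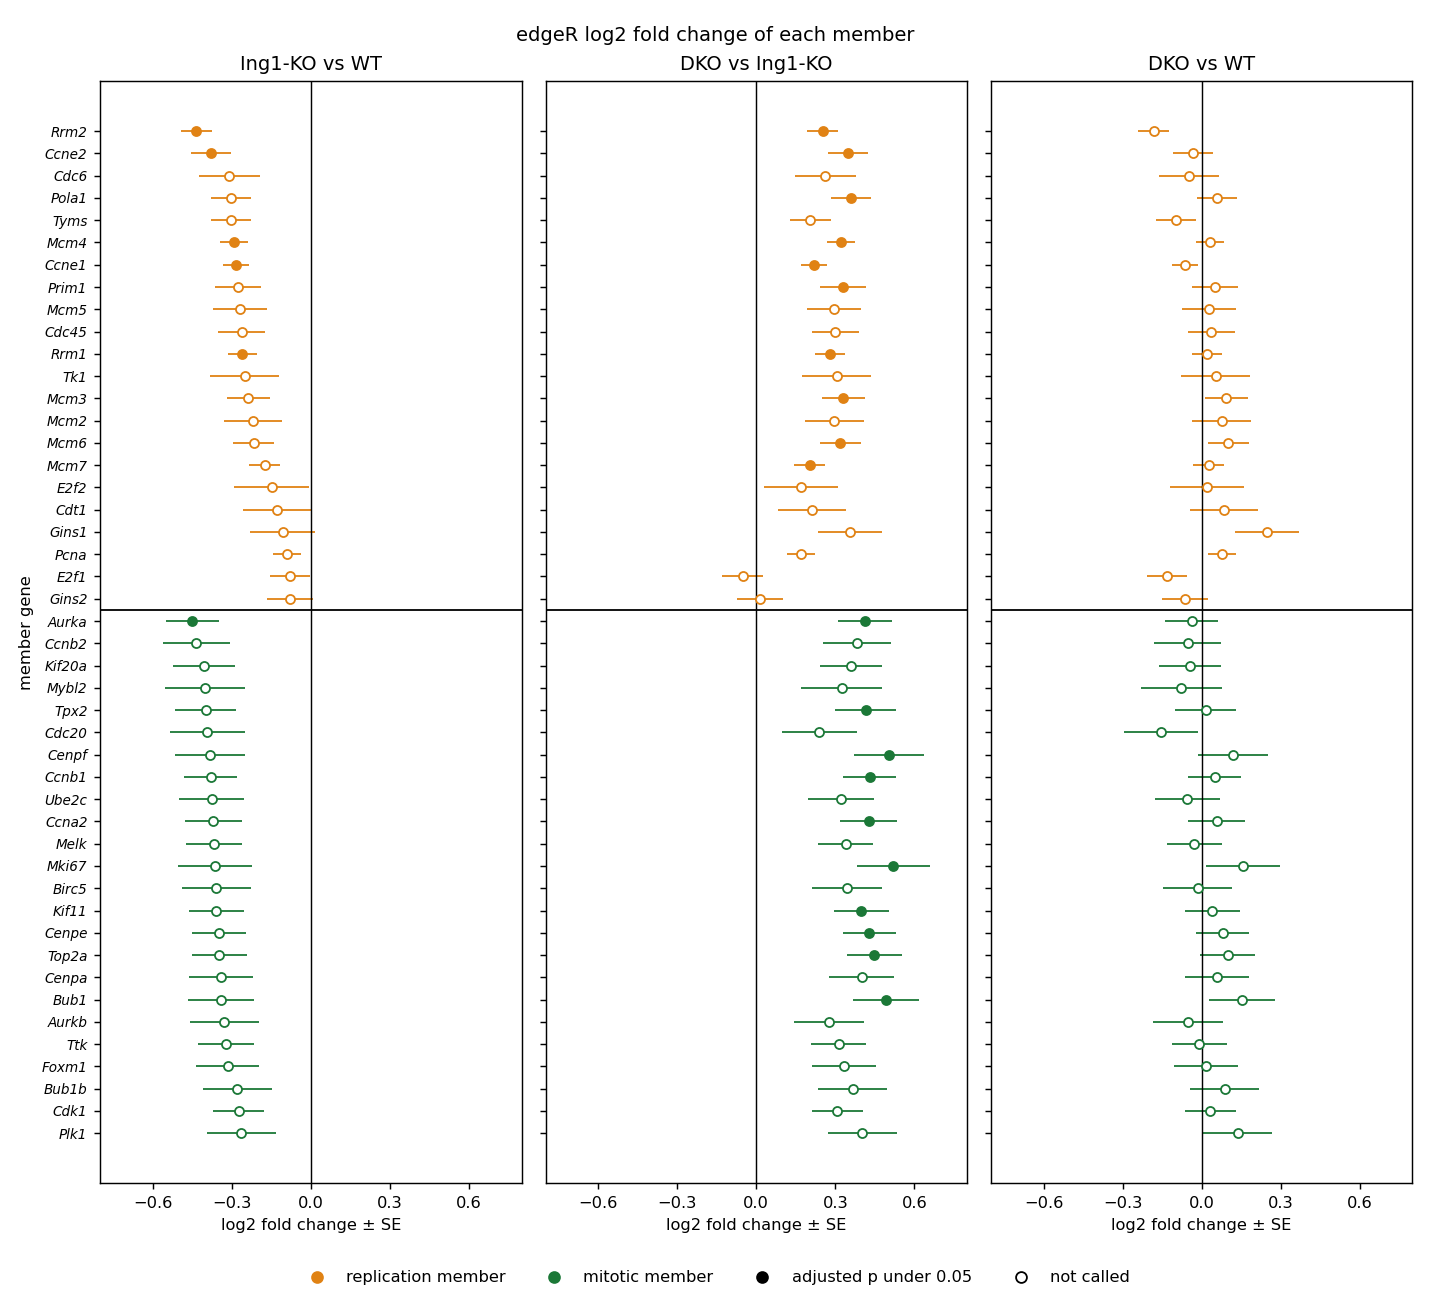
Log2 fold change ± SE of each gene for Ing1-KO against WT, for the libraries labelled DKO against Ing1-KO and for those labelled DKO against WT; orange marks replication genes, green mitotic genes, filled points those past the test. The first panel lies wholly left of 0, the middle panel right of 0 but for E2f1, and the last panel scatters around 0.

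The libraries labelled DKO were also set against WT, which asks for the effect of both lesions. None of the 46 genes passed edgeR's test, against 13.0% of all genes tested, and 1 had an unadjusted p under 0.05, where 28.7% of all genes did; DESeq2 called 0. The median log2 fold change was 0.029, with 17 genes negative and 29 positive, a split that rested on single libraries: 9 were negative with WT replicate 2 left out and 27 with WT replicate 3 left out. Rrm2 came nearest, with 60.1 ± 4.03 CPM in the libraries labelled DKO and 68.3 ± 3.18 CPM in WT (SD, n = 3 each; log2 fold change -0.18 ± 0.059 SE, adjusted p = 0.0661), and it was called when genes under a mean of 5 CPM were left out, under a replicate block and with only the 6 libraries compared. Gins1, a subunit of the GINS helicase cofactor, had the largest positive value, at 4.58, 4.70 and 4.50 CPM in the libraries labelled DKO and 4.15, 3.88 and 3.56 CPM in WT (log2 fold change 0.25 ± 0.12 SE, adjusted p = 0.206). The groups did not overlap in 5 genes, with Rrm2 and Ccne1 lower and Gins1, Cdt1 and Plk1 higher in the libraries labelled DKO. These 2 lower and 3 higher genes of 46 compare with 19.7% and 17.6% of all genes.

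Likewise none of the 46 genes passed edgeR's test between the libraries labelled Gadd45a-KO and WT, where 0.0124% of all genes did; 0 had an unadjusted p under 0.05, against 5.28% of all genes, and DESeq2 called 0. Rrm2 stood at 59.3, 65.9 and 63.3 CPM in libraries labelled Gadd45a-KO against 68.1, 71.5 and 65.2 CPM in WT. Its log2 fold change was -0.12 and that of Ccne1 -0.10, both with an adjusted p of 0.897. In no gene were the groups separate, against 7.61% of all genes lower and 4.60% higher. Replicate 1 of the libraries labelled Gadd45a-KO held the lowest level of its group in all 46 genes, and replicate 2 the highest in 43. Mki67 stood at 189.7, 270.4 and 257 CPM and Ccnb2 at 18.5, 26.4 and 25.3 CPM in the 3 replicates. Between the libraries labelled DKO and those labelled Gadd45a-KO 0 of the 46 genes passed, against 1.19% of all genes; 1 had an unadjusted p under 0.05, against 19.9% of all genes, and DESeq2 called 0. That gene was Pcna, with 69.3, 75.2 and 78.5 CPM under the label DKO and 63.96, 71.3 and 70.2 CPM under the label Gadd45a-KO (log2 fold change 0.12 ± 0.053 SE, adjusted p = 0.245). The SE of a log2 fold change had a median of 0.10 over the 46 genes, so differences of a few percent could not be resolved in any of these comparisons.

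Ing1-KO was also compared with the libraries labelled Gadd45a-KO. All 46 genes were on the negative side, with a median log2 fold change of -0.32, and 5 fell (10.9% of the 46, against 0.879% of all genes). They were Ccne2 (log2 fold change -0.46 ± 0.075 SE, adjusted p = 0.0160), Rrm2 (log2 fold change -0.32, adjusted p = 0.0274), Mcm4 (-0.27, adjusted p = 0.0323), Rrm1 (-0.27, adjusted p = 0.0344) and Ccnb1 (-0.45, adjusted p = 0.0449). The Ing1-KO libraries lay below those labelled Gadd45a-KO in 19 genes, against 10.7% of all genes. The calls rested on few libraries, as did those over all genes, 384 with all 12 libraries. With only these 6 libraries in the fit 0 of the 46 passed, and 0 when Gadd45a-KO replicate 2 or replicate 3 was left out. All-gene calls were then 35, 137 and 35. Leaving out Ing1-KO replicate 1 or 2 gave 1 call, DKO replicate 1 gave 2, and DKO replicate 2, WT replicate 1 or WT replicate 3 gave 3. There 173, 45, 173, 289, 216 and 155 of all genes passed. The count was 13 with Ing1-KO replicate 3 removed (1246 over all genes) and 28 with Gadd45a-KO replicate 1 removed (862). It was 22 by DESeq2, where 479 of 15899 genes fell (3.01%). The smallest log2 fold changes, of E2f1 (-0.017), Gins2 (-0.014), E2f2 (-0.052), Cdt1 (-0.087) and Gins1 (-0.10), turned positive when single libraries were left out: Gadd45a-KO replicate 2 for E2f1, E2f2, Cdt1 and Gins2, Gadd45a-KO replicate 3 for E2f1, and Ing1-KO replicate 1 for Cdt1, Gins1 and Gins2.

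Whether the Ing1 effect differs between the backgrounds labelled with and without Gadd45a was tested as an interaction, the difference between the libraries labelled DKO and Gadd45a-KO minus that between Ing1-KO and WT. None of the 46 genes passed edgeR's test, nor did any of the 16163 genes (0%), while 26 of the 46 and 2195 of all genes had an unadjusted p under 0.05. DESeq2 called 3 of the 46 genes, Mcm4, Ccne1 and Rrm2, where 169 of 16402 genes passed (1.03%). All 46 interaction terms were positive, with a median log2 value of 0.34, though that of E2f1 (0.011) turned negative with upper-quartile scaling. The smallest adjusted p were those of Mcm4 (log2 value 0.35 ± 0.075 SE, adjusted p = 0.163), Ccne1 (0.32, adjusted p = 0.168) and Rrm2 (0.37, adjusted p = 0.178). In the main edgeR fit the difference in calls between the 2 backgrounds is therefore not shown by its own test. By DESeq2 the test passed for the 3 genes named and for no other of the 46.

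Replication and mitotic genes were then set against each other. In Ing1-KO against WT the median log2 fold change was -0.26 for the replication genes and -0.36 for the mitotic genes, a difference of 0.11 (0.066 with WT replicate 2 left out, and 0.066 to 0.14 on leaving out each library in turn). Between the libraries labelled DKO and Ing1-KO the medians were 0.29 and 0.39, a difference of -0.10. The replication genes were thus the less displaced ones in both, yet 5 of 22 of them passed the test in Ing1-KO against WT and 1 of 24 mitotic genes did. The precision differed too: the SE of the log2 fold change had a median of 0.080 in the replication genes and 0.12 in the mitotic genes. The coefficient of variation between the 3 Ing1-KO libraries had a median of 6.70% in replication and 11.9% in mitotic genes (5.32% and 8.97% in WT). Within each library, the mean log2 CPM of the replication genes minus that of the mitotic genes was -0.15, -0.12 and -0.17 in the libraries labelled DKO, 0.081, -0.051 and -0.058 in Ing1-KO, -0.10, -0.21 and -0.22 in the libraries labelled Gadd45a-KO and -0.12, -0.22 and -0.072 in WT. The 3 Ing1-KO values were the highest of the 12 with WT replicate 3 next, and the pooled SD of this difference between libraries of a genotype was 0.066. In the other comparisons the replication minus mitotic difference of medians was 0.0042 for the libraries labelled DKO against WT, -0.063 for those labelled Gadd45a-KO against WT, 0.049 for those labelled DKO against those labelled Gadd45a-KO, 0.15 for Ing1-KO against the libraries labelled Gadd45a-KO and -0.081 for the interaction. Of these, the value of the libraries labelled DKO against WT changed sign on leaving out single libraries (-0.021 with WT replicate 2 removed, -0.0071 with DKO replicate 2 removed), and that of those labelled DKO against those labelled Gadd45a-KO did so with Gadd45a-KO replicate 2 removed (-0.017). Leaving out Gadd45a-KO replicate 3 took the value of those labelled Gadd45a-KO against WT to -0.0087, and leaving out Ing1-KO replicate 1 took the interaction to -0.027. Leaving out Ccna2 and Mybl2, which also act in S phase, gave 0.10 for Ing1-KO against WT.

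Pairs of the 46 genes were correlated from library to library. Over the 12 libraries Pearson's r between pairs had a median of 0.93 within the mitotic genes, 0.79 within the replication genes and 0.85 between the classes; with genotype means removed the medians were 0.89, 0.74 and 0.79. These are descriptions over libraries that share genotype and marker content, with no test. Kif11 followed the mean of the other members most closely (r = 0.982), then Top2a (0.979), Cenpe (0.978) and Mcm5 (0.978). E2f1 did so least (0.295), followed by Gins2 (0.639), E2f2 (0.640), Gins1 (0.742) and Cdt1 (0.752), all replication genes. These single-gene values include the differences between genotypes. With genotype means removed the lowest were E2f1 (0.524), Prim1 (0.629) and Ccne2 (0.673). Gins2 was then at 0.910, Gins1 at 0.833, Cdt1 at 0.808 and E2f2 at 0.719, and Mcm6 was highest (0.987).

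The summed level of the 46 genes was 1919, 2044 and 2079 CPM in libraries labelled DKO, 1428, 1621 and 1703 in Ing1-KO, 1709.8, 2148 and 2042 in libraries labelled Gadd45a-KO and 1939, 2085 and 1836 in WT. The 3 Ing1-KO libraries had the 3 lowest sums, with Gadd45a-KO replicate 1 next. Markers of other cell types were summed in the same libraries. The 20 macrophage and leukocyte markers summed to 9089, 8638 and 8567 CPM in libraries labelled DKO, 5368, 4559 and 5189.8 in Ing1-KO, 2431, 7133 and 6586 in libraries labelled Gadd45a-KO and 4557, 4894 and 5249 in WT. They were highest in the libraries labelled DKO, where 4 of 20 rose against Ing1-KO and 8 of 20 against WT, while 0 of 20 passed between Ing1-KO and WT. Of all genes tested 5.93% rose under the label DKO against Ing1-KO and 5.88% against WT. Gadd45a-KO replicate 1 was the lowest library of all for them and the lowest of its group for the 46 genes. The other groups went the opposite way. There the library with the lowest sum of the 46 genes had the highest macrophage sum of its group: DKO replicate 1, Ing1-KO replicate 1 and WT replicate 3. The 16 adipocyte markers summed to 610.3, 583 and 724 CPM in libraries labelled DKO, 6409, 2228 and 722 in Ing1-KO, 3290.4, 3289 and 2574 in libraries labelled Gadd45a-KO and 7512, 3853 and 6937 in WT. Of these, 10 of 16 fell in the libraries labelled DKO against Ing1-KO and 14 of 16 against WT, and 0 of 16 passed between Ing1-KO and WT. The shares of all genes that fell under the label DKO were 6.02% against Ing1-KO and 7.11% against WT. Ing1-KO replicate 1, with the lowest sum of the 46 genes, had the highest adipocyte sum of its group. The part of either cell type in the levels of the 46 genes was not tested.

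**Figure D5:**
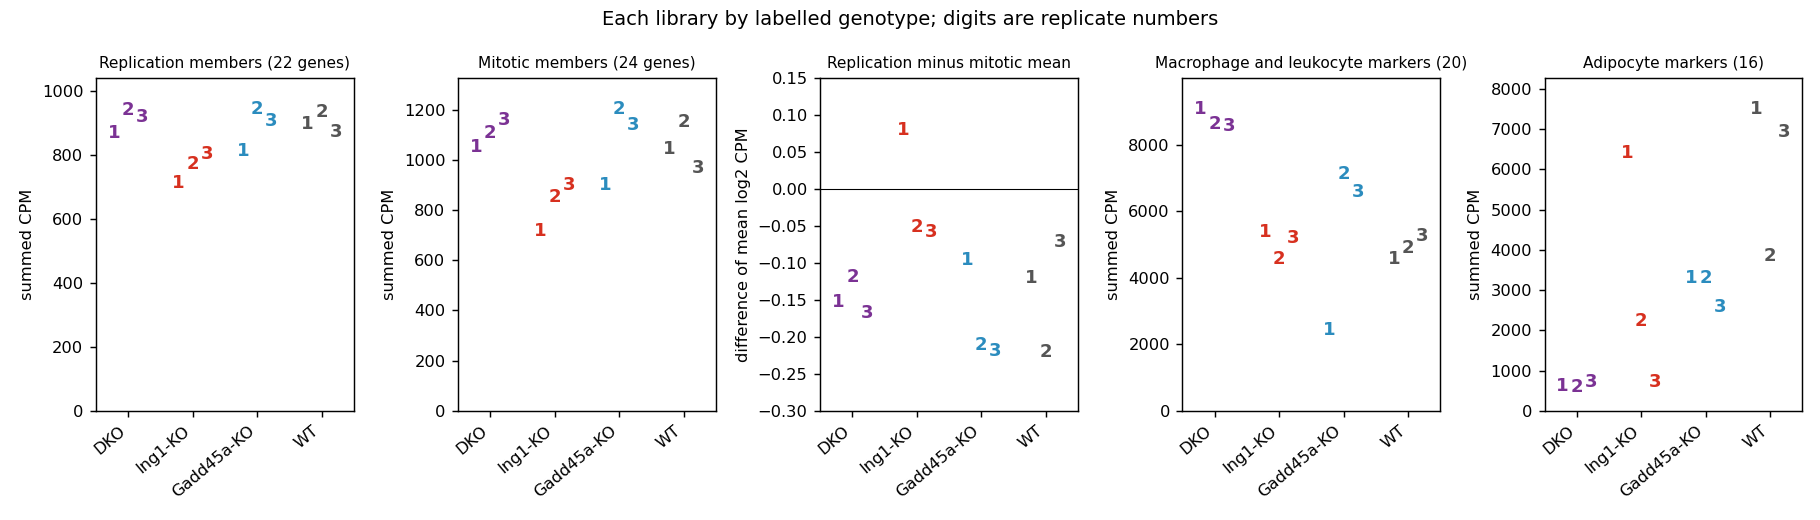
Each library by labelled genotype, with the replicate number as the symbol: summed CPM of the replication genes and of the mitotic genes, the mean log2 CPM of the replication minus that of the mitotic genes, and the summed CPM of 20 macrophage and leukocyte and 16 adipocyte markers. The 3 Ing1-KO libraries are lowest in the first and second panels and highest in the third, and the libraries labelled DKO are highest for macrophage markers and, with Ing1-KO replicate 3, lowest for adipocyte markers.

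Further genes of the same pathways were counted from lists made by role. Of 40 other mitotic genes 39 were on the negative side in Ing1-KO against WT (median log2 fold change -0.30). Against 1.84% of all genes tested, 2 of the 40 fell (5%). They were Ckap2, a spindle protein (log2 fold change -0.32, adjusted p = 0.0360), and Anln, anillin of the contractile ring (-0.44, adjusted p = 0.0417). Between the libraries labelled DKO and Ing1-KO 18 of the 40 rose (45%, against 5.93% of all genes). None of the 40 fell, and their median was 0.36. The smallest adjusted p were those of Ect2, a factor of cytokinesis (log2 fold change 0.39 ± 0.071 SE, adjusted p = 0.0149), Smc4, a condensin subunit (0.25, adjusted p = 0.0213), Ckap2 (0.35, adjusted p = 0.0226) and Kif23, a motor of the spindle midzone (0.45, adjusted p = 0.0245). Of 35 other replication genes 27 were on the negative side in Ing1-KO against WT and 8 on the positive side. The fall passed the test in 1 of the 35 (2.86%), near the 1.84% of all genes that fell. This gene was the fork protection factor Tipin, at 22.3, 22.4 and 22.3 CPM in Ing1-KO against 26.2, 28.6 and 26.9 CPM in WT (log2 fold change -0.29 ± 0.052 SE, adjusted p = 0.0159). In the libraries labelled DKO against Ing1-KO 6 of the 35 rose, where 5.93% of all genes did. Among the 6 were Pold3 (0.33, adjusted p = 0.0254) and Slbp (0.20, adjusted p = 0.0254). Pold2, like Pold3 a subunit of polymerase delta, fell by 0.24 (adjusted p = 0.0487), where 6.02% of all genes fell. The median of these 35 genes was -0.14 in Ing1-KO against WT and 0.18 in the libraries labelled DKO against Ing1-KO, closer to 0 than that of the 22 replication genes. In neither list did a gene pass in the other comparisons.

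Regulators of the G1 phase were counted in the same way. Of 9 G1 cyclins and their kinases none passed in Ing1-KO against WT (median log2 fold change -0.043), and Cdk2, the partner of cyclins E and A, alone rose in the libraries labelled DKO against Ing1-KO (log2 fold change 0.20 ± 0.052 SE, adjusted p = 0.0370). That is 11.1% of the 9, where 5.93% of all genes rose. Of 10 tested inhibitors of cyclin-dependent kinases and pocket proteins, 1 passed in Ing1-KO against WT (10%, all genes 4.15%). In Ing1-KO against the libraries labelled Gadd45a-KO 1 did (10%, all genes 2.38%). Between the libraries labelled DKO and Ing1-KO 3 of the 10 passed (30%, all genes 12.0%). Cdkn2a, the locus of p16 and p19ARF, rose in Ing1-KO: it stood at 37.5, 36.3 and 39.03 CPM in libraries labelled DKO, 55.4, 62.01 and 57.7 in Ing1-KO, 42.8, 37.8 and 38.7 in libraries labelled Gadd45a-KO and 42.2, 35.9 and 42.9 in WT. The Ing1-KO libraries lay above the other 9 (against WT log2 fold change 0.53 ± 0.073 SE, adjusted p = 0.00466; against the libraries labelled Gadd45a-KO log2 fold change 0.55 ± 0.073 SE, adjusted p = 0.00602). In the libraries labelled DKO Cdkn2a was lower than in Ing1-KO (log2 fold change -0.64 ± 0.073 SE, adjusted p = 0.00551), as was Cdkn2b, the neighbouring inhibitor p15 (log2 fold change -0.39 ± 0.081 SE, adjusted p = 0.0213). Rbl1, the pocket protein p107 and itself a known E2F target, rose in that comparison (log2 fold change 0.31 ± 0.084 SE, adjusted p = 0.0407). Cdkn1a, which encodes p21, did not pass in any comparison and stood at 458, 474 and 407 CPM in libraries labelled DKO, 468, 505 and 534 in Ing1-KO, 468, 426 and 435 in libraries labelled Gadd45a-KO and 441, 417 and 445 in WT. Of 8 histone genes 5 could be tested and 0 passed in any comparison by edgeR; transcripts of replication-dependent histones mostly lack a poly(A) tail, which the library preparation selects for. Of the 11 fibroblast markers 3 passed in Ing1-KO against WT (27.3%, all genes 4.15%). In the libraries labelled DKO against WT 3 of the 11 passed (27.3%, all genes 13.0%). In Ing1-KO against the libraries labelled Gadd45a-KO 1 did (9.09%, all genes 2.38%). Fap, a surface protease, rose in Ing1-KO against WT (log2 fold change 0.97 ± 0.16 SE, adjusted p = 0.0127) and in the libraries labelled DKO against WT (log2 fold change 0.95 ± 0.16 SE, adjusted p = 0.00896). S100a4, a calcium-binding protein, fell in Ing1-KO against WT (-0.25, adjusted p = 0.0227), in the libraries labelled DKO against WT (-0.25, adjusted p = 0.0128) and in Ing1-KO against the libraries labelled Gadd45a-KO (-0.21, adjusted p = 0.0475). Thy1 fell in Ing1-KO against WT (-0.41, adjusted p = 0.0380), and the growth factor receptor Pdgfra fell in the libraries labelled DKO against WT (-0.77, adjusted p = 0.0121). No fibroblast marker passed between the libraries labelled DKO and Ing1-KO, where 12.0% of all genes did.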

How the data were processed

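The authors deposited raw read counts per Ensembl gene for 12 poly(A) RNA-seq libraries, 3 per labelled genotype. Per the submitters' processing notes the mouse build is NCBIM37 (mm9), and the tools named, with no role given, are HTSeq 0.5.4, Bowtie2 2.1.0, TopHat2 2.0.9, FastQC and DESeq. How strand was set during counting is not given in the sources used here, so reads of a gene and of an antisense neighbour cannot be told apart. The 5 closing lines of each file, which name no gene and hold 24.2 to 24.8% of its total, stayed out of all steps. Of 37991 identifiers 32919 had a symbol in the annotation tables; Cdkn2d of the inhibitor list was not matched.

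Genes were kept by filterByExpr of edgeR 4.0.16 (R 4.3.3, minimum count 10), scaled by TMM (factors 0.986 to 1.01) and tested with edgeR's robust quasi-likelihood test, all 12 libraries in 1 fit (8 residual degrees of freedom, common biological coefficient of variation 0.105). P-values were adjusted by the Benjamini-Hochberg method over 16163 genes, and a gene was called when its adjusted p was under 0.05. Each SE is the size of the log2 fold change over the root of its F statistic, and log2 CPM values used a prior count of 2. Exon lengths and overlaps come from GENCODE vM21, and no coordinates were carried between builds. The fitting steps were tested on simulated data. All pairs of replicate libraries differed beyond sampling noise (chi-square over degrees of freedom 6.05 to 81.2). No label says that replicates were separate embryos, so p-values measure the spread between libraries, which may be technical.

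The members and gene lists were chosen with earlier results of these data known. Any of the 46 members could be named; values per library were given for the members with the smallest adjusted p of each class (up to 6) and for 13 further genes chosen by role, and up to 4 called genes were named per other list and comparison. Alternatives were DESeq2 1.42.0, other scalings and filters, only the groups compared, a replicate block and leaving out each library in turn. The replicate numbers were checked for pairing over all genes tested: 2 of 18 same-number pairs had deviations correlated above 0.1 (range -0.19 to 0.25). Among the 46 genes, replicate 1 was lowest of its group in 35 under the label DKO, 43 in Ing1-KO and 46 under the label Gadd45a-KO. In WT replicate 1 was lowest in 8 and replicate 3 in 36. Whether the 46 genes share a replicate effect was not tested.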

Additional observations from a re-analysis of the deposited data

How the results depend on the processing

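Each genotype had 3 libraries, and the counts of called genes moved with single libraries. How far depth limits precision was not tested. The single-gene values compared cover all 46 genes in Ing1-KO against WT, in the libraries labelled DKO against Ing1-KO, in Ing1-KO against those labelled Gadd45a-KO and in the interaction, and the named genes alone in the other comparisons. Of these 3233 kept direction and side of the threshold, 155 newly passed, 187 no longer passed and 22 changed sign. In every case the cause was not tested. DESeq2 called 17 genes in Ing1-KO against WT, 32 in the libraries labelled DKO against Ing1-KO, 22 in Ing1-KO against those labelled Gadd45a-KO and 3 in the interaction. Over all genes DESeq2 called 1239 of 15899, 2916 of 15395, 1028 of 15899 and 169 of 16402. The replicate block, a fit that treats equal replicate numbers as a pair, called 12, 27, 12 and 0 in the same comparisons, and 1 in the libraries labelled DKO against WT. Over all 16163 genes the block called 536, 1344, 280, 0 and 1784, against 671, 1932, 384, 0 and 2099 in the main fit. Without a filter on low counts 13 genes were called in the libraries labelled DKO against Ing1-KO. A minimum mean of 5 CPM, or only the libraries compared, gave 1 call in those labelled DKO against WT, and only the libraries compared gave 0 in Ing1-KO against those labelled Gadd45a-KO. All-gene calls there were 1721 of 10837, 3160 of 15568 and 35 of 15782. Leaving out 1 library at a time gave 1 to 21 calls in Ing1-KO against WT, 0 to 32 in the libraries labelled DKO against Ing1-KO, 0 to 1 in those labelled DKO against WT (1 without Gadd45a-KO replicate 1), 0 to 28 in Ing1-KO against those labelled Gadd45a-KO and 0 to 1 in the interaction (1 without Ing1-KO replicate 3). All-gene calls in the same order ran from 96 to 1155, 6 to 3179, 299 to 2754, 35 to 1246 and 0 to 191. Over those fits 1 of 6, 0 of 20 and 0 of 5 calls were kept throughout in Ing1-KO against WT, in the libraries labelled DKO against Ing1-KO and in Ing1-KO against those labelled Gadd45a-KO. Over all other alternatives 3, 11 and 0 were. With upper-quartile scaling the calls over all genes in the libraries labelled DKO against Ing1-KO were 717 higher and 1170 lower, against 959 and 973 with TMM.

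The replication minus mitotic difference between the libraries labelled DKO and Gadd45a-KO, 0.049, ran from -0.017 to 0.084 on leaving out 1 library. The ranges of this class difference were 0.066 to 0.14 for Ing1-KO against WT, -0.13 to -0.082 for the libraries labelled DKO against Ing1-KO, -0.021 to 0.022 for those labelled DKO against WT, -0.084 to -0.0087 for those labelled Gadd45a-KO against WT, 0.14 to 0.18 for Ing1-KO against those labelled Gadd45a-KO and -0.099 to -0.027 for the interaction. Signs were not stable where no gene was called: on leaving out 1 library 9 to 27 of the 46 genes were negative in the libraries labelled DKO against WT (17 with all 12), 6 to 44 in those labelled Gadd45a-KO against WT (27) and 6 to 37 in those labelled DKO against those labelled Gadd45a-KO (18). The extremes of both comparisons with the libraries labelled Gadd45a-KO came from leaving out replicate 1 or 2 of that label. In the other comparisons the sign turned in these genes. Gins2 in the libraries labelled DKO against Ing1-KO was -0.0091 with upper-quartile scaling, -0.0022 with a minimum of 5 CPM and -0.035 to 0.084 on leaving out 1 library. The interaction of E2f1 was -0.023, -0.00605 and -0.067 to 0.080 in the same settings. On leaving out 1 library, Gins1 ran from -0.18 to 0.000736 in Ing1-KO against WT, and E2f1 from -0.10 to 0.000683 in the libraries labelled DKO against Ing1-KO. In Ing1-KO against the libraries labelled Gadd45a-KO the ranges were -0.097 to 0.051 for E2f1, -0.21 to 0.079 for E2f2, -0.20 to 0.070 for Cdt1, -0.18 to 0.0051 for Gins1 and -0.076 to 0.061 for Gins2.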
